A study of Mus musculus with 4 samples.

Results

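The response to low-density lipoprotein (LDL) was read in cultured mouse vascular smooth muscle cells that lacked LAMP-2A, the lysosomal membrane receptor of chaperone-mediated autophagy. It rested on 2 of the 4 arrays of the study, the LDL-treated and the control array of the knockout genotype (L2AKO), and each value was the log2 level on the LDL array minus the log2 level on the control array. The cells came from aortas of C57BL/6J mice, 5 per the labels, and were used at passages 12 to 16. Both knockout cultures were kept for 24 h in DMEM medium with 5% lipoprotein-deficient serum (LPDS). The LDL culture also received LDL at 150 µg/ml of cholesterol and bovine lipoprotein lipase at 0.1 U/ml. The labels leave unclear whether the control culture had lipase as well, and how the knockout was made is not stated in them. The other 2 arrays held wild-type (WT) cells with and without the same LDL treatment and are used here to show what the knockout pair shares with them. RNA was pooled in triplicate before hybridisation, so each group was 1 pooled sample on 1 array, and no difference below carries a replicate error or a p-value.

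Levels are log2 of the background-subtracted spot intensity relative to the 75th percentile of the same array, so a probe at that percentile has a level of 0. Of 21367 genes on the array, 13008 had a signal well above background on both L2AKO arrays and are called measured. A further 915 genes were above background with LDL only and 223 in the control only, and these have bounds in place of differences. The LDL array of the knockout lay on slide 2 and the other 3 arrays on slide 1. Slide and LDL treatment cannot be told apart in the knockout, whereas the WT pair shared a slide.

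Cells take up LDL by endocytosis and break it down in lysosomes, which release its cholesterol. When cholesterol in the endoplasmic reticulum is low, the membrane-bound transcription factor SREBP-2 is escorted to the Golgi by SCAP, cleaved, and switches on the genes of cholesterol synthesis and LDL uptake. When cholesterol is ample, INSIG proteins hold SCAP back and these genes are turned down. A culture in lipoprotein-deficient serum is starved of sterols, so LDL is the classical way to shut the pathway off. Chaperone-mediated autophagy is a separate route into the lysosome in which the chaperone Hspa8 brings single cytosolic proteins to LAMP-2A, a splice form of the Lamp2 gene. Smooth muscle cells of the artery wall that take up much lipoprotein become foam cells, a hallmark of atherosclerosis.

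With LDL, 121 of the 13008 measured genes were at least 2-fold higher in L2AKO (0.93%) and 173 were at least 2-fold lower (1.33%). At 1.5-fold the counts were 434 higher (3.34%) and 592 lower (4.55%), and these percentages are the background for every list below. The median difference of all measured genes was -0.08, and the SD over genes was 0.37. Genes of sterol and fatty acid metabolism made up 30 of the 173 lower genes, or 17.3%, and 83 of the 13008 measured genes. Inflammation lists held 21 of the lower genes (12.1%) and 88 of the measured genes. Interferon and antigen presentation lists held 8 of the lower genes (4.62%) and 92 of the measured genes. A further 102 lower genes (59.0%) were on none of the 51 pathway lists. Of the higher genes, 11 were on a list (9.09%), a share like that of all measured genes (9.12%), whereas 71 of the lower genes were (41.0%). Scaling to the array median moved the median of all genes up by 0.11, to 0.03, and gave 162 higher and 129 lower genes. The share of higher genes among the called ones was then 55.7% against 41.2%, so the balance of higher and lower genes depended on the scaling.

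**Figure D1:**
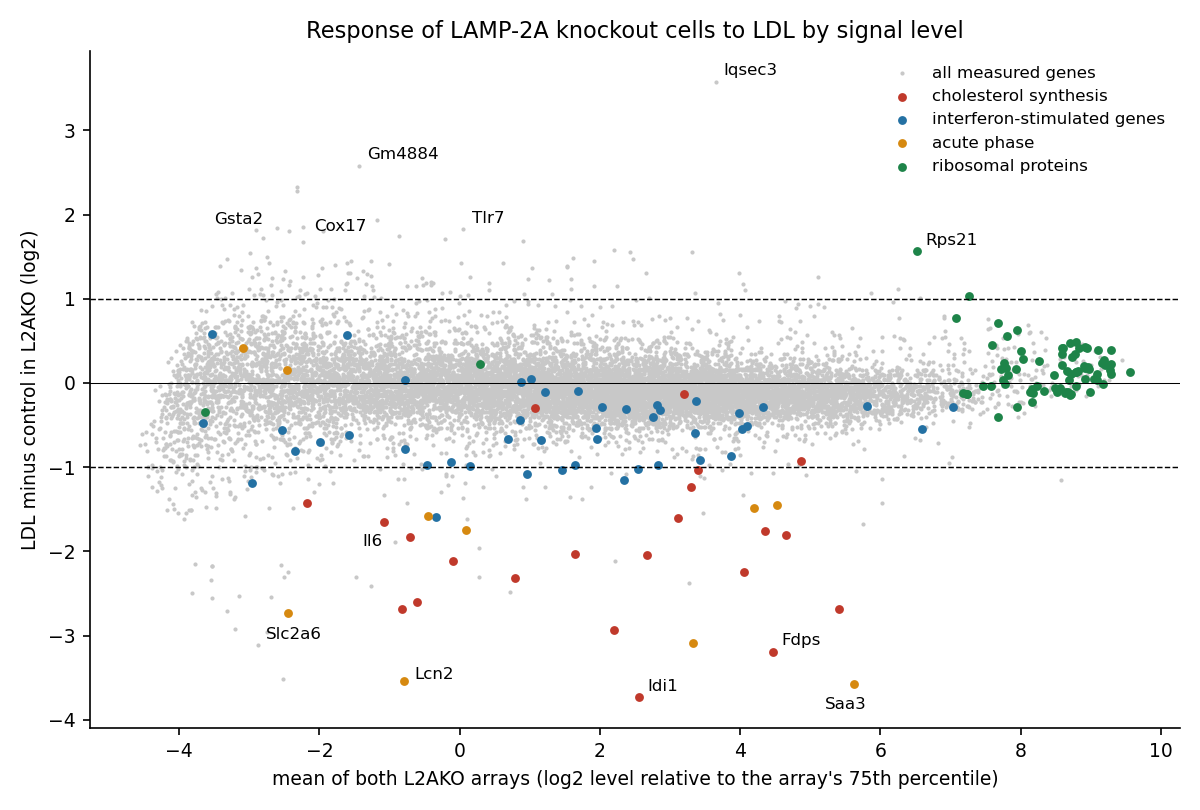
Each point is a measured gene: the x axis gives its mean log2 level on both L2AKO arrays, relative to the 75th percentile of each array, and the y axis the log2 difference between LDL and control in L2AKO, with dashed lines at 2-fold. The cholesterol synthesis genes (red) and acute phase genes (orange) reach below -3, with Idi1 at -3.73 and Saa3 at -3.58, while the highest point is Iqsec3 at 3.58.

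The genes of cholesterol synthesis were lower with LDL almost throughout. Of 22 measured genes in the mevalonate arm and in the steps from squalene to cholesterol, 20 were at least 1.5-fold lower with LDL, 19 of them at least 2-fold, and none was higher. Their median difference was -1.93, beside -0.08 for all measured genes. On the same 22 genes the WT pair had 20 lower and a median of -2.18, where 2.46% of measured WT genes were at least 1.5-fold lower and 1.25% at least 1.5-fold higher.

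In the mevalonate arm, which builds isoprenoid units from acetyl-CoA, Idi1 had the largest difference of all measured genes that were lower. Idi1 interconverts the 5-carbon isoprenoid building blocks, and its level was 4.42 in the L2AKO control and 0.69 with LDL, a 13.2-fold lower signal. In WT it read 5.42 without and 2.54 with LDL. The knockout with LDL was thus the lowest of the 4 arrays, and its difference of -3.73 was larger than the -2.88 of WT. Fdps, which makes farnesyl diphosphate, stood at 6.07 in the control and 2.88 with LDL (9.10-fold lower), and at 7.02 and 4.30 in WT. Hmgcs1, the cytosolic HMG-CoA synthase, went from 5.17 to 2.93, and the decarboxylase Mvd from 2.66 to 0.63.

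Ggps1, which makes geranylgeranyl diphosphate and leads away from cholesterol, was the member of this arm that did not reach 1.5-fold, with 3.26 and 3.13 in L2AKO and 3.58 and 3.60 in WT.

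After squalene, Hsd17b7 was at 0.52 and -2.17, and its other probe gave a difference of -2.58 beside -2.69. Msmo1, which removes methyl groups from the ring, was at 6.76 and 4.07 and was among the brightest genes of the pathway. Cyp51, the lanosterol demethylase, was at 0.69 and -1.92. Sqle, squalene epoxidase, a further control point of the pathway, was at 5.56 and 3.74, a difference of -1.81. Lbr, a protein of the inner nuclear membrane that also reduces sterols, was the exception in this arm, with 1.23 in the control and 0.93 with LDL.

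The starting point differed between the genotypes. For all 22 genes the L2AKO control lay below the WT control, with a median difference of -0.75 between these arrays, which shared a slide. With LDL, 19 of the 22 genes were lowest on the L2AKO array and 3 on the WT array. The response itself was smaller in L2AKO than in WT for 13 of the 22, with a median difference of responses of 0.06. The difference between the genotypes was not tested, since each group had 1 array.

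**Figure D2:**
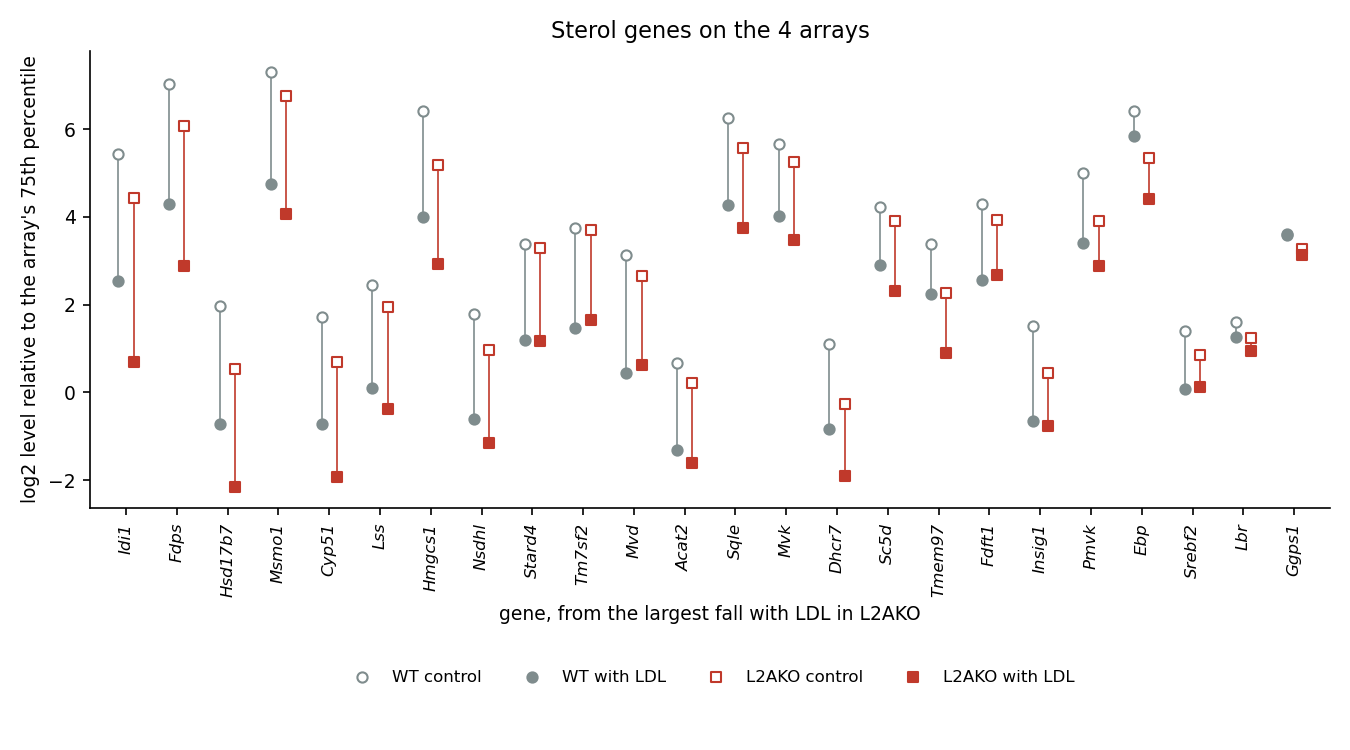
The x axis lists sterol genes in order of their L2AKO difference and the y axis gives the log2 level relative to the 75th percentile of the array; grey circles are WT, red squares L2AKO, open symbols control and filled symbols LDL, with a line joining the pair. From Idi1 to Ebp every filled symbol lies below its open symbol in both genotypes, while Lbr and Ggps1 at the right end barely move.

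Some genes of sterol sensing and lipoprotein uptake were lower too. Stard4, which carries cholesterol between membranes, was at 3.28 and 1.16. Tmem97, a binding partner of the cholesterol exporter NPC1, was at 2.26 and 0.90. Of 15 measured genes of uptake and sterol transport, 5 were at least 1.5-fold lower and none higher, with a median of -0.30. The receptors Lrp1 (5.86 and 5.90) and Scarb1 (2.16 and 1.94), and the lysosomal exporter genes Npc1 (0.64 and 0.50) and Npc2 (6.12 and 5.80), were among those that did not reach 1.5-fold.

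Among 11 sterol sensing genes, 2 were lower. Insig1, itself a target of SREBP, was at 0.44 and -0.77 in L2AKO and at 1.52 and -0.65 in WT, so its difference was -1.21 in L2AKO and -2.17 in WT. Srebf2, which encodes SREBP-2, was at 0.85 and 0.11, against 1.39 and 0.07 in WT. A dimmer probe of Srebf2 gave -0.18 in place of -0.74, and with probes averaged 1 of the 11 genes was lower. Both LDL arrays gave nearly the same level for both genes, and it was the controls that lay apart. Scap (6.30 and 6.12), Insig2 (3.61 and 3.38) and Srebf1 (-1.22 and -1.34) stayed within 0.25 log2 units.

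A DNA motif shared by the promoters of these genes was looked for in the 250 bases before the transcription start, in RefSeq sequence of build GRCm38.p6. Of the 22 cholesterol genes, 17 had an entry, and Fdps and Sqle were among those without. The letters CCAAT, bound by the factor NF-Y that works beside SREBP on sterol genes, were present on either strand in 16 of the 17 (94.1%) and in 37.5% of all 27025 genes with an entry. The sterol element TCACNCCAC was present in 1 of the 17, Hmgcs1, and in 1.22% of all genes. A match describes the letters only. The stretches below show where they lie in 5 genes that were lower with LDL. All are read 5′ to 3′ on the strand of the gene and end before its start. Capitals mark CCAAT or its reverse complement ATTGG, and in Hmgcs1 also the sterol element. They lie at chr13:119690101-119690350 (plus strand), chr13:8885486-8885605 (plus), chr8:122443423-122443542 (minus), chr5:4104698-4104817 (minus) and chr8:64733634-64733753 (minus).
Hmgcs1: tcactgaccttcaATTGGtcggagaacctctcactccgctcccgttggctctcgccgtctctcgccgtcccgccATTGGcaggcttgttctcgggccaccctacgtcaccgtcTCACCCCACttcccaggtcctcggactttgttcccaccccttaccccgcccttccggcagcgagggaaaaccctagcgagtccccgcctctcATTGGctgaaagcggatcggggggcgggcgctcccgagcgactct
Idi1: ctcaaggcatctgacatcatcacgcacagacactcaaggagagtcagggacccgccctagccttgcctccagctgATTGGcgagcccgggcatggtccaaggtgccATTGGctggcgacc
Mvd: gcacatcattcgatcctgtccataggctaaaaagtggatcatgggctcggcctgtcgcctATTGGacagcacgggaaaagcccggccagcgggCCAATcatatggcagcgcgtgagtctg
Cyp51: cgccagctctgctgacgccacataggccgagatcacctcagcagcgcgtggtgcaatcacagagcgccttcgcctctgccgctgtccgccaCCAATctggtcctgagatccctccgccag
Msmo1: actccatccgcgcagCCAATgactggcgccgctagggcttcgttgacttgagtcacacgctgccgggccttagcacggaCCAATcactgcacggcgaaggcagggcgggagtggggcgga

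Fatty acid synthesis, which is driven mainly by SREBP-1, was lower as well. Of 20 measured genes, 12 were at least 1.5-fold lower and none higher, with a median of -0.67 (WT -0.65). With each array scaled to its median, 9 of the 20 were lower, with a median of -0.56. The normexp background correction also gave 9 lower, with a median of -0.49. Elovl6, which lengthens palmitate to stearate, was at 1.95 in the L2AKO control and -0.52 with LDL, and at 2.87 and 0.89 in WT. Acsl3, which activates fatty acids, was at 0.39 and -0.91. Acss2, which makes acetyl-CoA from acetate, was at 2.49 and 1.25, and Fasn, the fatty acid synthase, at 0.36 and -0.75. Scd1, the desaturase, was at 2.72 and 2.04, a difference of -0.68 beside -1.20 in WT.

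The list of liver X receptor (LXR) targets and genes tied to oxysterols and cholesterol efflux did not move as a group. The median of 15 genes was -0.14, and 1 gene passed 1.5-fold. Abca1, the cholesterol exporter, was at 2.27 and 2.49 in L2AKO and at 0.41 and 1.30 in WT, a difference of 0.23 in the knockout beside 0.89 in WT. Apoe, the apolipoprotein that foam cells secrete, differed by 0.02 in L2AKO. Mylip, a ubiquitin ligase and LXR target, was at 0.40 and 0.76. Ch25h, listed because it makes the oxysterol 25-hydroxycholesterol, was the gene that passed, with 1.25 in the control and -0.71 with LDL. It was lower with LDL in WT too, by a difference of -1.50.

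Lipid storage genes and targets of the fatty acid receptors PPAR showed little difference. Of 15 lipid droplet genes, 1 was higher and none lower, and of 23 PPAR genes none passed 1.5-fold. Plin2, the droplet coat protein that marks foam cells, was at 4.96 and 5.09.

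Interferon-stimulated genes, whose products block virus replication, formed the next large group. They are switched on by STAT and IRF factors below the interferon receptors, and cultured cells often keep a basal level. Of 45 measured genes, 21 were at least 1.5-fold lower with LDL in L2AKO and none was that much higher, the median being -0.55. With each array scaled to its median, 16 of the 45 were lower and 2 higher. The normexp background correction gave 16 lower and none higher. In WT 26 of 41 were lower and the median was -0.97. Between the controls the median difference was 0.05, with 18 of the 45 genes lower in the L2AKO control than in the WT control.

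Isg15, a ubiquitin-like protein, read 3.06 in the L2AKO control and 2.04 with LDL, while WT read 3.21 and -0.01. The controls were alike and the WT LDL array lay far below the other 3. A dimmer probe of Isg15 gave -0.57 in L2AKO and -3.32 in WT. Usp18, which removes ISG15 from proteins, was at 0.64 and -0.35 in L2AKO and at 0.87 and -2.49 in WT. Zbp1, a sensor of left-handed nucleic acid, had the largest difference of the list in L2AKO (-1.59), from 0.46 to -1.13, against 0.02 and -3.11 in WT. Ifit1, which binds viral RNA, was at 1.50 and 0.42, and Rtp4 at 2.92 and 1.77.

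Stat2 was at 3.89 and 2.98 in L2AKO (3.84 and 2.37 in WT), and Irf9 at 4.30 and 3.75 (4.27 and 3.17 in WT). Oas1a, which makes the activator of the antiviral nuclease RNase L, stood at 3.31 and 2.34 in L2AKO, above both WT arrays (0.48 and -2.67). Of the 41 genes above background on all 4 arrays, 34 had a smaller response in L2AKO, with a median difference of responses of 0.50. Over the whole list 34 of 45 genes were lowest on the WT LDL array and 8 on the L2AKO LDL array. Of the interferon receptor genes, Ifnar2 was lower, at 4.33 and 3.53, Ifnar1 was short of 1.5-fold, at 2.85 and 2.32, and Ifnb1 was above background on neither array. Interferon-inducible GTPases, which attack the vacuoles of parasites, were mixed: 5 of 14 were lower and 2 higher, with Gbp3 at 1.07 and -0.03 and Iigp1 at -1.07 and -0.10. Antigen presentation genes were lower for 2 of 16, with H2-K1, a heavy chain of MHC class I, at 5.16 and 4.20. The other H2-K1 probe gave 5.01 and 4.79, and with median scaling 1 of the 16 was lower.

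**Figure D3:**
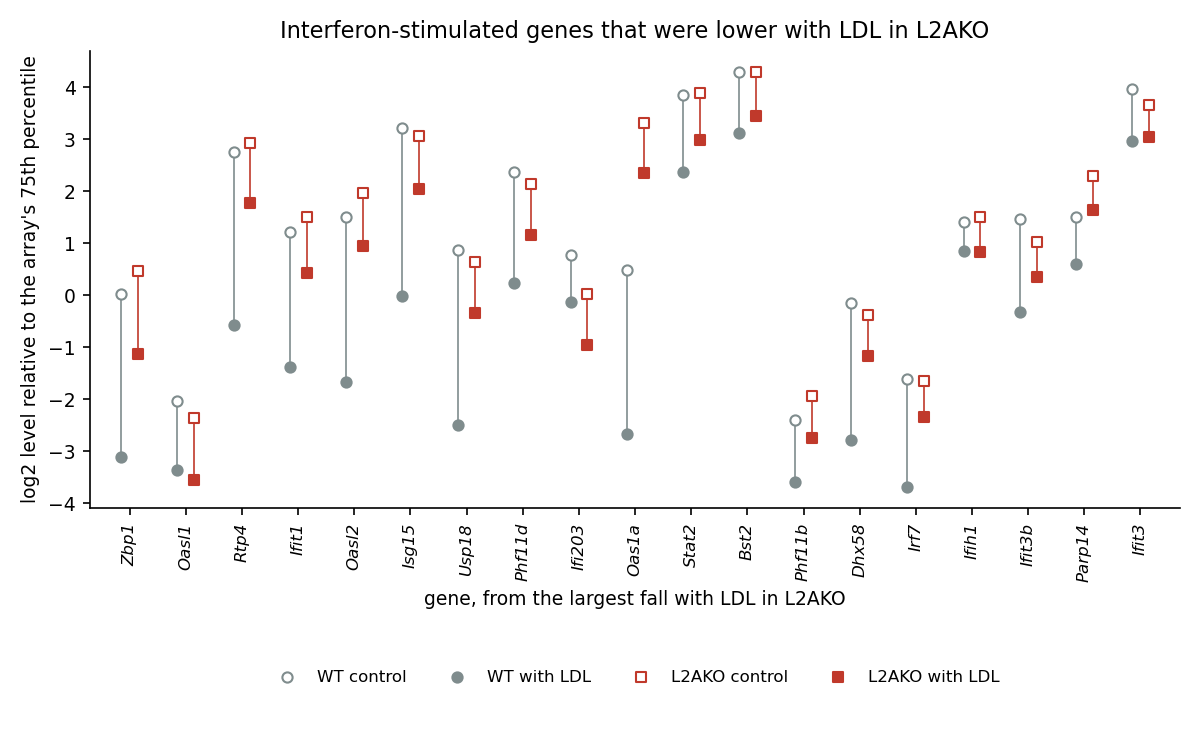
The x axis lists the interferon-stimulated genes that were at least 1.5-fold lower with LDL in L2AKO and above background on both WT arrays, and the y axis gives the log2 level relative to the 75th percentile of the array; grey circles are WT, red squares L2AKO, open symbols control and filled symbols LDL. For Isg15, Usp18 and Rtp4 the open symbols of both genotypes lie close together, while the filled WT symbol is more than 2 log2 units below the filled L2AKO symbol.

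The interferon element GAAANNGAA, the core read by STAT and IRF factors, was present in the promoter window of 18 of 39 listed genes with an entry (46.2%) and in 8.18% of all genes. Among the measured genes, the 15 that held it had a median difference of -0.68 with 11 of them at least 1.5-fold lower, and the 20 that did not had a median of -0.38 with 4 lower. These counts are a description of the letters. Below are 4 genes, with the element or its reverse complement in capitals, at chr4:156200819-156200938 (minus strand), chr19:34640769-34640888 (plus), chr5:120907526-120907645 (minus) and chr8:71537498-71537617 (minus). Bst2, also called tetherin, which holds virus particles on the cell surface, was at 4.30 in the L2AKO control and 3.44 with LDL.
Isg15: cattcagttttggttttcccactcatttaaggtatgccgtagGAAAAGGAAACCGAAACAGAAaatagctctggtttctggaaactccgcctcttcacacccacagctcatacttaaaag
Ifit1: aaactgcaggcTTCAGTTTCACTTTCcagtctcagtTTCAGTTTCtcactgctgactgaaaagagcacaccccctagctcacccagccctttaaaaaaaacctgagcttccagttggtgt
Oas1a: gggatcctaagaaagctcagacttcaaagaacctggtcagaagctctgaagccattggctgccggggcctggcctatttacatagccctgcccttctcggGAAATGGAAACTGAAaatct
Bst2: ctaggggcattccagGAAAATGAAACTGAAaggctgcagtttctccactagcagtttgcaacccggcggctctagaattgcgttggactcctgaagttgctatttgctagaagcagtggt

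Acute phase genes, secreted defence proteins that respond to IL-1 and IL-6, were lower by more than the interferon genes. Of 10 measured genes, 8 were lower, none was higher at 1.5-fold, and the median was -1.67 (WT -1.04). Saa3, a serum amyloid A protein, was at 7.42 in the L2AKO control, among the bright genes of that array, and at 3.84 with LDL, 11.9-fold lower. In WT it was at 5.93 and 1.54. Lcn2, which binds bacterial iron carriers, was at 0.97 and -2.57, and Saa1 at 4.88 and 1.79. Serpina3i, a protease inhibitor, was dim with LDL, at -1.09 and -3.82, and its difference was -2.73 here and -1.24 after the normexp background correction. Hp, haptoglobin, was at 5.25 and 3.79, and Cp, the copper carrier ceruloplasmin, at 4.94 and 3.45.

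In the complement list 9 of 17 genes were lower, with a median difference of -0.60. Cfb, factor B of the alternative pathway, was at 1.43 and -0.87 in L2AKO and at 0.10 and -2.75 in WT. C3, the central component, was at 9.15 and 8.00, with a difference of -1.15 on this probe and -1.18 on the other. With each array scaled to its median, 5 of the 17 were lower.

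Of 15 chemokine genes, 7 were lower, and the median was -0.32. Over the 13 that were above background on all 4 arrays, 7 were lower and the median was -0.86, and over the 10 among the brightest 75% of all measured genes it was -1.03. The WT median of -0.75 was over 17 measured genes, so it does not rest on the same genes. Ccl2, which attracts monocytes, was at 6.59 and 4.91 in L2AKO and at 6.14 and 4.82 in WT. Cxcl1 was at 4.25 and 2.70, Ccl7 at 6.73 and 5.31, and Cxcl5, which attracts neutrophils, at -0.06 and -2.47. Cxcl5 in WT was much brighter, at 3.28 and 1.60.

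NF-kappaB targets and cytokines were lower for 11 of 31 genes, none was higher at 1.5-fold, and the median was -0.27 (WT -0.28, with 4 of 31 lower). Il6 was at 0.03 in the L2AKO control and -1.86 with LDL, a difference of -1.89 beside -0.83 in WT (-1.29 and -2.12). Sod2, the mitochondrial superoxide dismutase, was at 6.59 and 5.45. Tnfaip3, which encodes the NF-kappaB inhibitor A20, was at 3.77 and 2.87 in L2AKO and level in WT at 3.79 and 3.81. Nfkbia, the inhibitor IkB-alpha, was at 6.03 and 5.34. Il1b, Tnf and Il1a were above background on neither L2AKO array. Tlr2 was lower as well, at 0.97 and -0.04.

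The NF-kappaB consensus site was present in the promoter window of 11 of 30 genes of this list (36.7%), of 6 of 20 chemokine genes (30.0%) and of 4.46% of all genes. The 10 measured list genes that held it had a median difference of -0.61, and the 12 without it had -0.22. The capitals below mark the match in 4 genes, at chr5:30012994-30013113 (plus strand), chr5:90891125-90891244 (plus), chr12:55492648-55492767 (minus) and chr12:104262953-104263072 (plus).
Il6: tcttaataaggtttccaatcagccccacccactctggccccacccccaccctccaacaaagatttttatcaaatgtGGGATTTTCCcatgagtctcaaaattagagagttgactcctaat
Cxcl1: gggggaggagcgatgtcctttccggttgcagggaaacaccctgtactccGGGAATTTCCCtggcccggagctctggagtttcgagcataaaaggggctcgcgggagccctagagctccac
Nfkbia: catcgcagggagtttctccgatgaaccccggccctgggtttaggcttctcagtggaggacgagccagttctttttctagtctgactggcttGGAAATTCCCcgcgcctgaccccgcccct
Serpina3i: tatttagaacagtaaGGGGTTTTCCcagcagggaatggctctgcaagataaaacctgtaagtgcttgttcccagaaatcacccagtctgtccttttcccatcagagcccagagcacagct

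**Figure D4:**
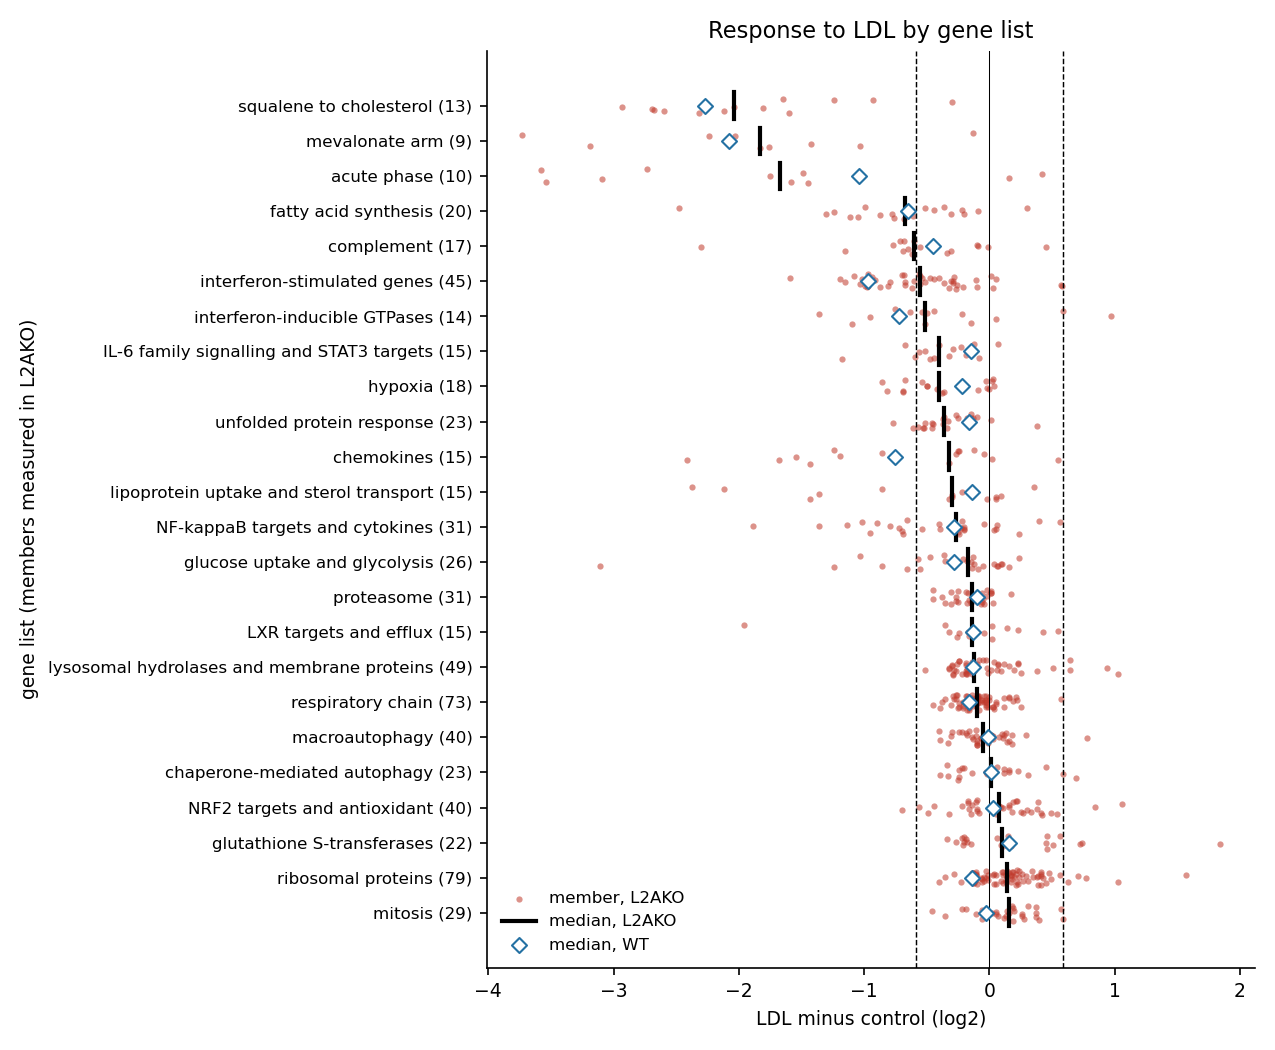
Each row is a gene list with its number of measured members, and the x axis gives the log2 difference between LDL and control; red points are members in L2AKO, black bars their median and blue diamonds the median of the list in WT, with dashed lines at 1.5-fold. The cholesterol lists and the acute phase list stand at the top with medians from -2.04 to -1.67, the interferon-stimulated genes lie nearer 0 in L2AKO (-0.55) than in WT (-0.97), and autophagy, lysosome and respiratory chain lists are centred near 0.

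Antioxidant genes were mixed. Of 40 targets of NRF2, the factor that answers oxidative and electrophilic stress, 2 were higher and 1 lower, with a median of 0.08. Nqo1, a quinone reductase, was at 0.79 in the L2AKO control and 1.85 with LDL, and at 0.83 and 1.55 in WT. Gclm, the regulatory subunit of glutathione synthesis, was at -0.86 and -0.02. Among 22 glutathione S-transferases 3 were higher, with Gsta2 at -3.53 and -1.69 in L2AKO and -3.19 and -1.15 in WT. Hmox1, heme oxygenase, was at 5.44 and 5.99, short of 1.5-fold. Nfe2l2, which encodes NRF2, was lower, at 4.69 and 3.99 (a difference of -0.70, or -0.51 after normexp), while it was level in WT at 4.51 and 4.60.

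Autophagy and lysosome genes were close to the median of all genes. The 23 measured genes of chaperone-mediated autophagy had a median of 0.01 with 2 higher and none lower, and 40 macroautophagy genes had -0.05 with 1 higher. The higher genes were Hspa8, the chaperone of the pathway (7.83 and 8.42), and Eef1a1 (7.76 and 8.45), a translation factor that also acts at the lysosomal receptor. Hspa8 passed 1.5-fold on its brightest probe (0.59), and its other probes gave 0.36 and 0.28. After quantile normalisation neither gene of this list passed 1.5-fold.

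Lamp2, the targeted gene, had a bright probe at 6.33 and 6.09 in L2AKO (6.29 and 6.38 in WT) and a dimmer one at 2.30 and 2.41 (3.68 and 3.74 in WT). Neither differed with LDL by more than 0.24 in L2AKO. No source used here says which probe reads the exon of the 2A form, so these probes do not check the labels. Of 49 lysosomal hydrolases and membrane proteins, 4 were higher and none lower, with a median of -0.12. Among them were Arsb (-2.80 and -1.77) and Idua (4.36 and 5.30), both enzymes that break down glycosaminoglycans, and the sialic acid exporter gene Slc17a5. Their other probes gave -0.40 for Arsb, 0.07 for Idua and -0.32 for Slc17a5, against 1.03, 0.94 and 0.64 on the main probes. With the probes of a gene averaged, 1 of the 49 was higher, and after normexp Arsb was at 0.51. Tfeb, the master regulator of lysosome genes, was at -0.13 and -0.07. None of 17 proton pump genes and none of 31 proteasome genes passed 1.5-fold.

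Some genes of glucose use, hypoxia and the unfolded protein response were lower in L2AKO. Of 26 genes of glucose uptake and glycolysis 5 were lower and none higher, with a median of -0.17 (-0.06 with median scaling), and in WT 3 were lower with a median of -0.28. The transporter Slc2a6 was at -1.32 and -4.44, a difference of -3.11 that was -1.36 after the normexp background correction. Hk2, a hexokinase, was at 1.84 and 0.60 (1.48 and 1.08 in WT), and Slc2a1, the main basal glucose transporter, at 3.83 and 2.97 in L2AKO but level in WT (4.40 and 4.35). Of 18 hypoxia genes, 5 were lower in L2AKO and none in WT, with a median of -0.40 beside -0.22. Hif1a was at 3.96 and 3.29. Under the normexp background correction 2 of the 18 were lower. Genes of the unfolded protein response had a median of -0.36 (WT -0.16), with 2 of 23 lower in L2AKO and none in WT, among them Manf at 3.75 and 2.99, and the chaperone Hspa5 at 6.72 and 6.36 was short of 1.5-fold.

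Several signalling lists had members past 1.5-fold. Of 19 genes of the BMP list 3 were lower and none higher. Nog, an antagonist of bone morphogenetic proteins, was at -1.60 and -2.73, and Grem1, another, at 4.86 and 4.18. After normexp none of the 19 was lower, with Nog at -0.56 and Grem1 at -0.55. Ltbp2, a matrix protein related to the binding proteins of latent TGF-beta, was at 2.43 and 1.05 (2.95 and 2.50 in WT). Of 21 Wnt genes 4 were lower and 1 higher, and after normexp 1 was lower and 1 higher. The enhancer gene Rspo1 was at -1.33 and -3.57 and Rspo2 at -1.88 and -2.95, differences of -2.24 and -1.07 that were -1.12 and -0.54 after normexp. Notum, which inactivates Wnt proteins, was at 1.74 and 3.21 and level in WT at 1.53 and 1.40. Of 38 genes of growth factors and their receptors 4 were higher and 2 lower, and after normexp 2 were higher and 2 lower. Vegfc, a lymphatic growth factor, was among the lower ones, at 3.98 and 2.88. Fgfr2 (-2.19 and -1.39) and Fgfr3 (-1.48 and -0.74) were among the higher ones. Of 26 genes of metalloproteinases and their inhibitors 5 were lower and none higher, and after normexp 2 were lower. Mmp3, stromelysin, was at 5.00 and 3.93 and level in WT (4.59 and 4.71). Cyp26b1, which degrades retinoic acid, was at -1.16 and 0.09 in L2AKO and at 2.73 and 3.36 in WT.

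The main contractile markers had similar levels on both L2AKO arrays. Acta2 was at 6.63 and 6.55, Tagln at 4.89 and 4.91 and Cnn1 at 1.43 and 1.39, while Myh11, Myocd, Lmod1 and Des, which define mature smooth muscle, were above background on neither array. Macrophage markers Ptprc and Adgre1 and endothelial markers Cdh5 and Tek were above background on neither array as well, but most markers of their lists were above it. Of 20 macrophage and foam cell markers, 12 were above background in the L2AKO control and 11 with LDL, and their summed level was 6.96 and 7.01 in log2 units. Of 15 endothelial markers, 9 were above background on each L2AKO array, and their summed level was 4.32 and 4.30. The summed level of 15 adventitial fibroblast markers was 8.87 and 8.77. Of 10 smooth muscle markers, 6 were above background on each L2AKO array, and their summed level was 7.14 and 7.09. Single markers passed 1.5-fold in several of these lists. The endothelial receptor gene Flt1 had a difference of -1.11 (1 of 9 measured endothelial markers lower, none higher) and the adventitial gene Pdgfra -0.78 (1 of 14 lower, none higher). Of 11 macrophage markers 1 was higher, Itgam at 0.80 with -0.15 on its other probe, and 1 lower, Trem2 at -0.73 and -0.52 after normexp. Cd4 (1 of 4 lymphocyte markers) was at 0.93, Krt18 (1 of 10 mesothelial and epithelial markers) at 0.64, and Synpo2 (1 of 6 smooth muscle markers) at 0.90, or 0.51 after normexp. The part of other cell types in the results was not tested. In a bulk culture fewer cells of a type and less RNA per cell cannot be told apart. Mitosis genes had a median of 0.16, with Mki67 at 0.13 and 0.71, and replication genes -0.05.

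Mitochondrial and stress genes were near the median of all genes. Of 73 respiratory chain genes none passed 1.5-fold, with a median of -0.10. Of 17 genes that assemble cytochrome c oxidase 2 were higher, led by Cox17, a copper chaperone, at -3.15 and -1.31 in L2AKO and -4.46 and -4.09 in WT. Of 19 heat shock genes none passed 1.5-fold, and of 24 genes of the integrated stress response 1 was lower. Of 30 p53 targets and cell cycle inhibitors 3 were lower, among them the death receptor gene Fas at 4.04 and 3.07. Of 26 collagen genes 1 was higher and 1 lower. In the calcification list 2 of 14 genes were higher and 2 lower. Enpp1, which makes the mineralisation inhibitor pyrophosphate, was higher, at -0.51 and 0.52 in L2AKO. In WT it read -6.32 and -5.88 and was above background on neither array. The lower genes were Bglap (-3.34 and -4.26) and Slc20a1 (3.17 and 2.48).

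Genes that were higher with LDL had a different pattern from those that were lower. Iqsec3, an exchange factor for small GTPases known from inhibitory synapses, was the highest measured gene, at 1.86 in the L2AKO control and 5.44 with LDL, 12.0-fold higher, against 2.87 and 2.63 in WT. Its other probe was below background. Gm4884 was at -2.73 and -0.15, Car4, a membrane-bound carbonic anhydrase, at 1.66 and 3.21, and Rps21, a protein of the small ribosomal subunit, at 5.74 and 7.30. In each of these the L2AKO LDL array stood above the other 3 arrays.

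That held for most higher genes. Of the 121 genes, 108 had the L2AKO LDL array above all the other arrays, and for 63 the other 3 arrays lay within 0.5 log2 units, a condition met by 54.2% of all measured genes. Of the 173 lower genes, 103 had the L2AKO LDL array below all others and 18 had the other 3 within 0.5. Both sets were picked by the gap between the L2AKO arrays, so the 108 and the 103 follow in part from the choice. No share over all measured genes is given for them. In WT, 105 of the higher genes were measured and their median difference was -0.01. Of these, 12 were at least 1.5-fold higher and 1 lower, where 1.25% of all measured WT genes were higher. Of 138 lower genes measured in WT, 75 were at least 1.5-fold lower and 4 higher, where 2.46% of all measured WT genes were lower. Their median was -0.83.

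Other probes of these genes could be set beside the main ones. The higher genes had 13 other probes above background, of which 2 were at least 1.5-fold higher and 7 were above 0. The lower genes had 22, of which 18 were at least 1.5-fold lower and 21 below 0. Tlr7, a sensor of single-stranded RNA, was 1.83 higher on its main probe (-0.86 and 0.97), while another probe gave -0.43. Since the LDL array of L2AKO was also the array of slide 2, the part of the slide in these values was not tested. Of 8 spike-in controls, RNAs added in fixed amount, the L2AKO differences ran from -0.99 to 0.56 with a median of -0.62, and the WT differences from -0.51 to -0.20.

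Differences in both directions were wider among dim genes. The measured genes were put into 4 groups of 3252 by mean level. In the dimmest group 72 genes passed 2-fold upward and 108 downward, and the SD of the differences was 0.51. In the brightest group 10 were higher and 18 lower, with an SD of 0.28. Ribosomal protein genes had a median of 0.14 and 5 of 79 were higher, with Rpl4 at 6.76 and 7.78. Their median was -0.02 after quantile normalisation and 0.00 after normexp, so a direction for the group depended on the scaling.

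Genes above background on 1 L2AKO array have bounds only. The bounds reached 2-fold for 49 of the 915 genes seen with LDL only and for 193 of the 223 seen in the control only. The dim side was set no lower than the lowest level well above background on its array. That level was -4.45 on the L2AKO control and -5.08 on the L2AKO LDL array. Of all probes, 47.2% were well above background on the control and 52.0% on the LDL array. The limits of detection thus differed, and these counts do not compare genes gained with genes lost. Slc2a2, a glucose transporter of liver and islet cells, was at -6.57 in the control and -0.48 with LDL, at least 15.7-fold higher, and it was near -6.5 on both WT arrays (-6.48 and -6.65). Il7, a lymphocyte growth factor, was at -6.51 and -2.18, at least 4.82-fold higher. Gm4208 was at -1.11 in the control and -5.60 with LDL, at least 15.6-fold lower, and it read -6.17 and -6.37 in WT. Of the 8 largest lower bounds, Gm4208, Npas1, Chp2, Krtap3-1, Jakmip3 and Il2ra had this pattern, with the L2AKO control alone far above the other arrays.

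**Figure D5:**
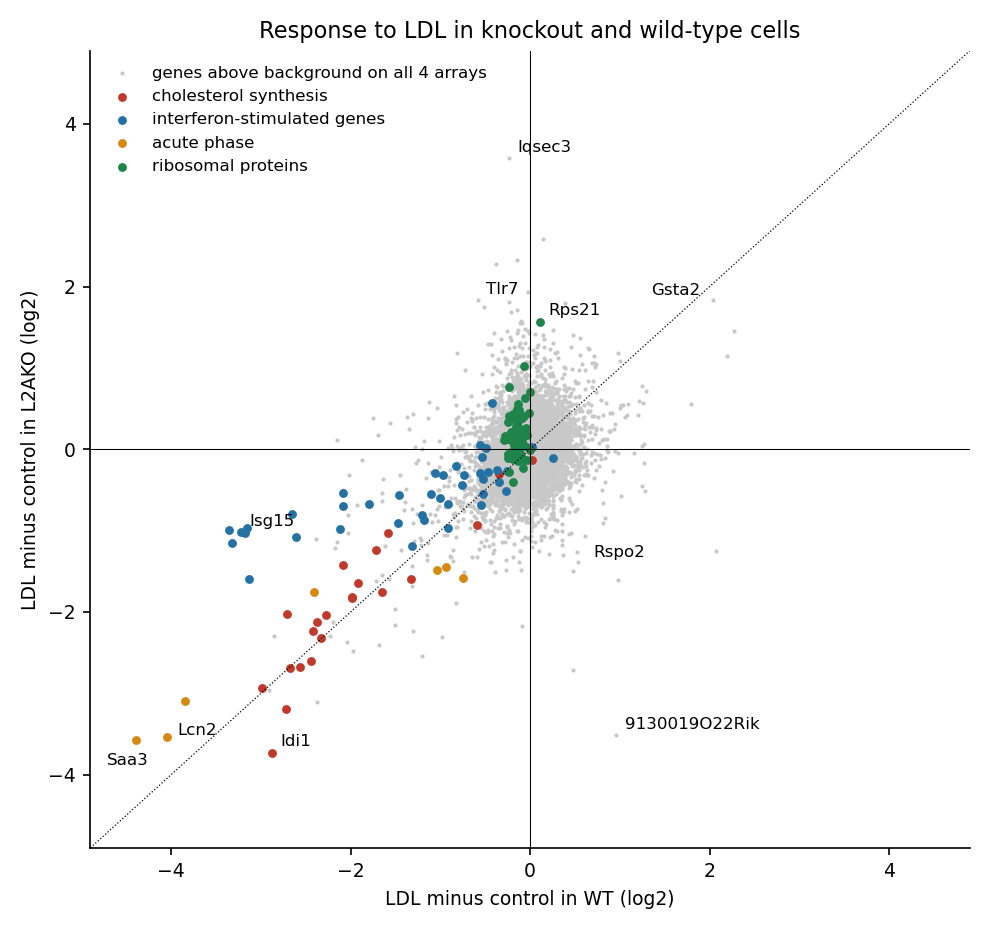
Each point is a gene above background on all 4 arrays, with its log2 difference between LDL and control in WT on the x axis and in L2AKO on the y axis; the dotted line marks equal responses. Cholesterol genes (red) lie along the dotted line, most interferon-stimulated genes (blue) lie above it with WT values down to -3.36 for Usp18 against -0.99 in L2AKO, and the highest L2AKO genes, such as Iqsec3 at -0.24 on the x axis, lie near 0 there.

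The responses of both genotypes shared no array and could be set side by side. Across genes in the 4 groups of rising level, Pearson's r between the responses was 0.25, 0.37, 0.41 and 0.38, and Spearman's rho 0.13, 0.16, 0.12 and 0.10. These values are across 2759, 3230, 3251 and 3252 genes, which are not independent replicates, and they describe the arrays only.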

How the data were processed

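Total RNA of 4 groups, pooled in triplicate per the labels, was hybridised with Cy3 to 4 1-colour Agilent mouse 8x60K arrays, 1 pooled sample per group. Per the file headers, Agilent Feature Extraction 10.7.3.1 (grid built on mm9) made the intensities, subtracting background from each spot. The authors also deposited a value table of linear signal with equal medians (57.4 to 57.6) and an equal maximum (274706.8) in every column; the submitters' processing notes name oligo and RMA, and its exact scaling is not stated there.

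Here log2 of the processed intensity minus the array's 75th percentile over 55679 non-control probes (318.8, 370.6, 389.4 and 433.8 in WT control, WT LDL, L2AKO control and L2AKO LDL) was the level. Between 47.2% and 52.0% of probes were well above background, and no spot was saturated. Probes used more than once on an array had a median SD of 0.054 and 0.045 on the L2AKO arrays, which covers spot error only, and 1 array per group limits the precision. Through unversioned RefSeq accessions of the GRCm38.p6 gene table, 28330 probes matched 1 gene and 27349 none, and a gene took its brightest probe. Genes seen on 1 array have a bound against the lowest signal above background on the dim array.

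Named genes were the 15 highest and 15 lowest measured genes among those that were also at least 2-fold after the normexp background correction. The 8 largest bounds on each side and up to 4 genes past 1.5-fold per list were named too. Further list members that define a pathway were named after their values were seen. Some genes that enter the counts and medians are not reported here by name. Members and gene lists were chosen with earlier results of these data known. Alternatives changed the scaling, background correction (normexp in limma 3.58.1, R 4.3.3), value table, filter, probe summary, flagged spots and fold. Values were computed with Python 3.11.15, numpy 2.4.6 and pandas 2.3.3, and the script was tested on simulated data.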

Additional observations from a re-analysis of the deposited data

Results flagged for a closer look

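Of the named genes above background on all 4 arrays, 2 had responses to LDL of at least 1.5-fold in opposite directions in the genotypes. Each group had 1 array, and the difference between the genotypes was not tested. The transcript 9130019O22Rik was lower with LDL in L2AKO by -3.51 and higher in WT by 0.96. Its levels were -0.77 and -4.28 in L2AKO and -3.85 and -2.89 in WT, so the L2AKO control stood above the other 3 arrays. After the normexp background correction its L2AKO difference was -1.59. Rspo2, which enhances Wnt signalling, was lower in L2AKO by -1.07 and higher in WT by 0.61. After normexp its L2AKO difference was -0.54, short of 1.5-fold. Other genes ran in opposite directions without being above background on all 4 arrays. Flt1 (-1.11 in L2AKO and 0.94 in WT) and Bglap (-0.92 and 2.35) were not above background on both WT arrays.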

How the results depend on the processing

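None of the 138 measured genes that the rule named changed sign under any alternative that gave it a value, and no list median past 1.5-fold reversed. Of these genes, 97 kept their side of 1.5-fold with normexp, 104 with the authors' deposited values and 122 with median scaling. The rule picked most of them for a large difference, and the 15 highest and 15 lowest also for passing 2-fold after normexp. Their kept signs were thus in part fixed by the choice. Over all called genes, 45 of the 121 higher and 70 of the 173 lower were also at least 2-fold with normexp. The 121 higher and 173 lower genes became 52 and 71 with normexp, 67 and 78 with the authors' deposited values, 523 and 1077 with no filter on dim probes, and 49 and 65 among the brightest 75% of genes. At 1.5-fold they were 434 and 592, and at 3-fold 16 and 50. The cholesterol median of -1.93 was -1.82 with median scaling, -1.84 scaled over probes above background, -1.69 with normexp, -1.73 with the authors' values, -2.03 among the brightest genes and -1.82 with probes averaged. The interferon-stimulated median of -0.55 was -0.44 with median scaling and with normexp, -0.46 scaled over probes above background and -0.48 with lowess. The NF-kappaB median of -0.27 was -0.16, -0.18 and, with no filter, -0.40. Where a result moved, the cause was not tested. No paired analysis was possible because each group had 1 array, and no replicate could be left out. The share of higher genes among those called was 41.2%, 55.7% with median scaling, 53.3% scaled over probes above background and 32.7% with no filter.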

Other observations

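Probes with no gene in the table used here also differed between the L2AKO arrays. Of 8476 that were above background on both, 226 were at least 2-fold higher with LDL (2.67%) and 171 lower (2.02%). Genes of odorant and taste receptors and hair keratin proteins, which this cell type is not known to use, were seen above background for 92, 99, 88 and 102 of 1403 genes in WT control, WT LDL, L2AKO control and L2AKO LDL. Of the 62 measured in L2AKO, 11 were at least 1.5-fold higher and 15 lower, with a median of 0.01. After normexp 7 were higher and none lower, and in the authors' deposited values 9 were higher and 1 lower. Among the 15 highest measured genes that were also at least 2-fold after normexp were Olfr297, Tas2r113, Olfr1466 and Krtap10-10.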
